A study of Mus musculus with 8 samples.

Results

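Ins1, Ins2, Iapp, Ppy, Slc30a8, G6pc2, Mafa and Ucn3 are genes of the pancreatic islet, and their transcripts were looked for here in the proximal small intestine. The members were all probe sets of the deposited table whose single gene symbol in the array annotation is 1 of these 8. That gave 9 probe sets for 6 genes, of 18193 genes named in this way: 4 for Iapp and 1 each for Ins2, Ppy, Slc30a8, G6pc2 and Ucn3. Ins1 and Mafa had no probe set with that symbol alone and were not analysed here.

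The 8 samples were male mice aged 6 months on a standard diet with 4.5% fat, 4 in each of 2 groups, and each was labelled a brother of the same litter. The KO mice (Pdx1flox/flox;VilCre) carried Pdx1 with loxP sites around exon 2, which encodes the DNA-binding homeodomain, and a Cre transgene under a villin 1 promoter fragment, which acts in the intestinal epithelium. The Ctrl mice (Pdx1flox/flox) carried the same floxed alleles without the Cre transgene. Each sample was the first 5 cm of small intestine next to the pylorus on an Affymetrix array of its own, with total RNA labelled by in vitro transcription. The samples were pieces of bulk tissue, in which fewer cells of a type and less RNA per cell cannot be told apart. The Cre acts only in epithelium, so RNA of muscle, immune cells or attached tissue came from cells outside its reach.

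Pancreas and duodenum arise side by side from the foregut, and the homeodomain factor Pdx1 is made in both. In beta cells Pdx1 binds A-box elements with a TAAT core in the insulin and Iapp promoters, together with E-box factors that bind CANNTG and with the factor Mafa. Ins1 and Ins2 encode the mouse insulins, which are stored in beta-cell granules together with amylin, the product of Iapp. Slc30a8 encodes the granule zinc transporter ZnT8, G6pc2 an islet glucose-6-phosphatase subunit, and Ucn3 urocortin 3, a peptide of mature beta cells. Ppy encodes pancreatic polypeptide, the hormone of the islet PP cell.

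The promoters of Iapp and Ppy are shown because they held the most and the fewest matches to TAAT among the member windows. Whether such matches bear on the islet transcripts was not tested. Both promoters are the 250 bases before the RefSeq gene start in GRCm38.p6, 5′ to 3′ on the gene's strand, with each TAAT or ATTA in capitals. Iapp lies on the plus strand (chr6:142298175-142298424) and Ppy on the minus strand (chr11:102101320-102101569).
Iapp: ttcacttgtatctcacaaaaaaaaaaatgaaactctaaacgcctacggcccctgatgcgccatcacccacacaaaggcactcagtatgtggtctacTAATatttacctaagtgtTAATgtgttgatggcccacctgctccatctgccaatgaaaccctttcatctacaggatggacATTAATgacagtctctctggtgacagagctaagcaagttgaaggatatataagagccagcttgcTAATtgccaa
Ppy: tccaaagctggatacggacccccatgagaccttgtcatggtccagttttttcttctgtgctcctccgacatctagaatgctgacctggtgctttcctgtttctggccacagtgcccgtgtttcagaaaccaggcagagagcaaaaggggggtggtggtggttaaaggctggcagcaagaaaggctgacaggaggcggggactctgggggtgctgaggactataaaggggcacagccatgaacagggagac
The Iapp window held 5 matches to TAAT on either strand, the first bases of which lay 154, 136, 74, 72 and 10 bases before the gene start. The matches at 74 and 72 overlap each other. The Ppy window held 0 matches. The G6pc2 windows, not shown, held 1 and 3, and the Ucn3 window held 2. Of 32851 RefSeq promoter windows of this length, 54.92% held at least 1 match and 5.543% held at least 5. CANNTG, which reads the same on both strands, occurred 3 times in the Iapp window and 0 times in the Ppy window. At least 1 CANNTG was in 66.22% of the windows and at least 3 were in 12.21%. A letter match describes the sequence and is not a binding site. The promoter table gave no window for Ins2.

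Pdx1 checked the labels. Its brighter probe set read 6.04, 5.91, 6.18 and 5.58 in KO 1 to KO 4, against 8.33, 8.61, 8.16 and 8.98 in Ctrl 1 to Ctrl 4, all on the deposited log2 scale. It fell by 2.59 on the log2 scale in KO mice (SE 0.18, adjusted p = 0.000416, limma), and the second Pdx1 probe set fell by 1.85 (adjusted p = 0.00107). No source used here says whether either probe set lies in exon 2. Of the other genes described below only Gip, the incretin hormone of duodenal K cells, passed the test, with 8.77 ± 0.30 in KO mice and 11.41 ± 0.25 in Ctrl mice (SD, n = 4 each, adjusted p = 0.000201). Most enterocyte markers fitted the labelled tissue: Vil1 averaged 12.79 ± 0.06 in KO mice and 12.60 ± 0.09 in Ctrl mice, and the ileal genes Fabp6 and Slc10a2 averaged 3.47 and 3.08 over all mice. Cybrd1, of the same enterocyte list as Vil1, was lower and averaged 6.75. Some stomach transcripts were bright as well: the gastric mucosa genes Gkn1, Gkn3 and Tff1 averaged 12.96, 13.40 and 12.87 over all mice. Gkn2 and Tff2, of the same stomach list, were brighter still. The other genes of that list were lower: the parietal cell gene Atp4a averaged 4.90, and Muc5ac, Pgc, Atp4b and Cblif between 4.67 and 7.90.

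No islet member passed the test between KO and Ctrl mice. By limma over all 45037 probe sets, 0 of the 9 member probe sets reached an adjusted p under 0.05, where 19 of all probe sets (0.0422%) did. At an unadjusted p under 0.05 there was 1 member probe set, where 7.13% of all probe sets were called. KO and Ctrl values overlapped for each of the 9, whereas they did not overlap for 4.43% of all probe sets. The log2 change was below 0 for 8 of the 9, with a median of -0.66, beside a median of 0.000048 over all probe sets. By gene, with the brightest probe set of each, 5 of 6 were below 0 and the median was -0.46. Without Ctrl 4, 5 of the 9 probe sets were below 0 and the median was -0.0056. Without KO 2, 8 of the 9 were below 0 and the median was -1.25. With both of these mice left out, 8 of the 9 were below 0 and the median was -0.43. The size of the shift thus depended on which of these mice were kept. Intervals were wide for Ins2, Ppy and 3 of the Iapp probe sets, so decreases of several fold lay inside them. Increases lay inside them as well, up to 1.88 on the log2 scale for Ins2 and up to between 0.88 and 1.14 for the others.

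**Figure D1:**
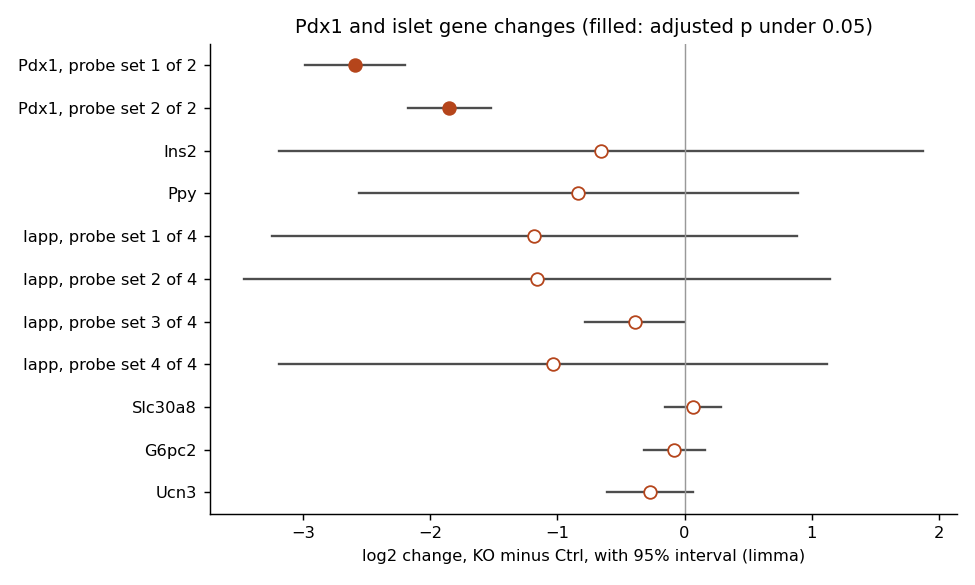
Log2 change, KO minus Ctrl, with the 95% interval from limma for both Pdx1 probe sets and the 9 islet probe sets (n = 4 mice per group, filled points have an adjusted p under 0.05). Both Pdx1 intervals lie below 0, and the intervals of Ins2 (-3.19 to 1.88) and Ppy (-2.56 to 0.89) span 0.

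Ins2, an insulin gene, read 7.84, 10.46, 8.06 and 8.06 in KO 1 to KO 4, against 9.31, 8.11, 6.62 and 13.00 in Ctrl 1 to Ctrl 4 (1422446_x_at, log2). Ctrl 4 was the highest of all mice and Ctrl 3 the lowest, so the Ctrl mice spanned the whole KO range. Among KO mice, KO 2 stood 2.40 above the next and the other 3 lay between 7.84 and 8.06. On a linear scale the highest Ctrl mouse was 83.1 times the lowest, and the highest KO mouse 6.12 times the lowest. Means were 8.60 ± 1.24 in KO mice and 9.26 ± 2.72 in Ctrl mice (SD, n = 4 each), a log2 change of -0.66 (SE 1.14, 95% interval -3.19 to 1.88, adjusted p = 0.935, limma). Without Ctrl 4 the change was 0.59 (adjusted p = 0.891), and without Ctrl 4 and KO 2 together it was -0.03. Its direction thus depended on which of these mice were kept. The suffix x marks an Affymetrix probe set with probes shared with other transcripts, and how much Ins1 RNA adds to it was not tested.

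Iapp, which encodes amylin, had 4 probe sets. The brightest read 5.82, 7.76, 5.68 and 5.55 in KO 1 to KO 4, against 7.45, 6.15, 5.49 and 10.44 in Ctrl 1 to Ctrl 4 (1423509_a_at, log2). Ctrl 4 and KO 2 were again the highest of their groups and Ctrl 3 again the lowest of all mice. Its means were 6.20 ± 1.04 in KO mice and 7.38 ± 2.20 in Ctrl mice, a log2 change of -1.18 (SE 0.93, 95% interval -3.24 to 0.88, adjusted p = 0.824, limma). Another pair of probe sets, 1437323_a_at and 1423510_at, had changes of -1.16 and -1.03 (adjusted p = 0.851 and 0.861). All 3 shrank to between -0.16 and 0.01 without Ctrl 4. Without Ctrl 4 and KO 2 together they were -0.68, -0.51 and -0.56, in the order given.

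The remaining Iapp probe set, 1456004_x_at, the third by level, gave other values. It read 5.44, 6.21, 5.96 and 5.63 in KO 1 to KO 4, against 6.38, 5.99, 5.96 and 6.48 in Ctrl 1 to Ctrl 4, a range of 1.04 over the 8 mice where the brightest Iapp probe set had 4.95. It was the member with an unadjusted p under 0.05 (0.0496), with a change of -0.39 (95% interval -0.78 to -0.00089, adjusted p = 0.701, limma). Across mice it correlated with the other 3 Iapp probe sets at r = 0.730 to 0.792, while those 3 correlated with each other at r = 0.994 to 0.997 (Pearson's r of deviations from the group means, n = 8, a description of probe sets that share a target).

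Ppy, the gene of pancreatic polypeptide, read 5.08, 6.94, 5.63 and 5.10 in KO 1 to KO 4, against 6.88, 5.52, 4.75 and 8.95 in Ctrl 1 to Ctrl 4 (1420440_at, log2). The same mice lay at the ends as for Ins2 and Iapp, and the groups overlapped. Means were 5.69 ± 0.87 in KO mice and 6.52 ± 1.84 in Ctrl mice, a log2 change of -0.83 (SE 0.78, 95% interval -2.56 to 0.89, adjusted p = 0.861, limma). The log2 range was 1.86 over KO mice and 4.20 over Ctrl mice, and the lowest values lay among those of dim probe sets, as described below, so both ranges may be understated. Without Ctrl 4 the change was -0.03, and without Ctrl 4 and KO 2 together it was -0.44.

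Slc30a8, G6pc2 and Ucn3 were dim, with log2 ranges under 1 over the 8 mice. Slc30a8, the zinc transporter gene, read 3.55, 3.86, 3.92 and 3.80 in KO 1 to KO 4, against 3.68, 3.90, 3.54 and 3.73 in Ctrl 1 to Ctrl 4, a change of 0.07 (95% interval -0.16 to 0.29, adjusted p = 0.919, limma). G6pc2 read 3.25, 3.43, 3.16 and 3.18 in KO 1 to KO 4, against 3.31, 3.20, 3.21 and 3.64 in Ctrl 1 to Ctrl 4, a change of -0.08 (95% interval -0.32 to 0.16, adjusted p = 0.908). For G6pc2 the highest mice of the groups were again KO 2 and Ctrl 4, within a range of 0.48. Ucn3 read 4.592, 4.604, 4.133 and 4.200 in KO 1 to KO 4, against 4.566, 4.305, 4.807 and 4.927 in Ctrl 1 to Ctrl 4, a change of -0.27 (95% interval -0.61 to 0.07, adjusted p = 0.755). The groups overlapped for all 3. Within groups Ucn3 had an SD of 0.26, above the 0.13 of the median probe set.

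The deposited table has no detection calls, so 43 olfactory receptor probe sets, whose genes are active mainly in the nose, served as a rough gauge of dim signal. The highest of their means over the mice was 5.40, and the highest single value among them was 5.54. Ins2 and the brightest Iapp probe set lay above that mean on all 8 arrays, and Ppy on 5. Iapp in Ctrl 3 (5.49) and Ppy in Ctrl 2 (5.52) were still below the highest single value. Slc30a8, G6pc2 and Ucn3 lay above the highest mean on 0 arrays, so their small changes may be understated by background. Probe sets differ in affinity, and the gauge sets no threshold of detection.

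**Figure D2:**
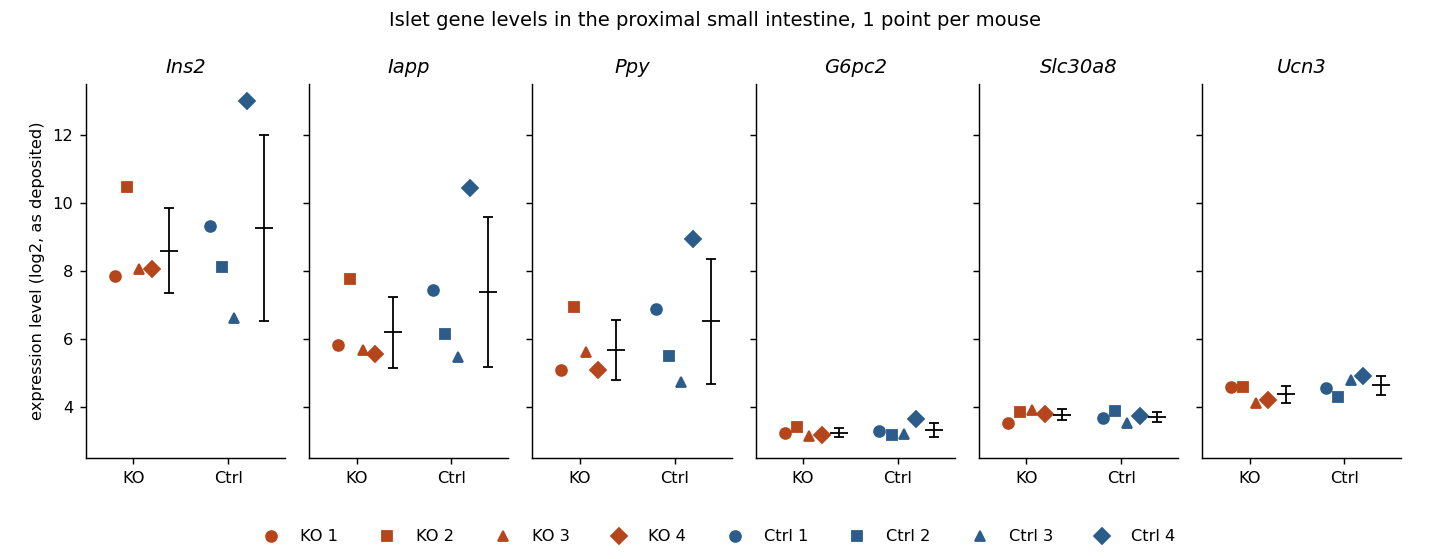
Log2 level of each measured islet gene in each mouse (brightest probe set, KO left of Ctrl, bars show mean and SD, n = 4). Ins2, Iapp and Ppy are highest in Ctrl 4 (13.00, 10.44 and 8.95) and, among KO mice, in KO 2, while Slc30a8, G6pc2 and Ucn3 have ranges of 0.38, 0.48 and 0.79 over all mice.

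The mice of a group differed in Ins2, Iapp and Ppy far more than in most transcripts. By the SD within groups, Ins2 ranked 7 of 45037 probe sets with an SD of 2.12, where the median probe set had 0.13. The 3 variable Iapp probe sets ranked 9, 14 and 19, and Ppy ranked 30 with an SD of 1.44. The enteroendocrine transcripts Gcg and Sst ranked 509 and 1578, with SDs of 0.49 and 0.31. Such spread was not particular to islet genes: Ctrc, an exocrine protease gene, ranked 12 with an SD of 1.85, and the gastrin gene Gast ranked 37 with an SD of 1.32. Their highest mouse was another one, Ctrl 1 for Ctrc at 14.10 and Ctrl 2 for Gast at 10.75.

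Ins2, Iapp and Ppy went up and down together between mice. After the group means were removed, Pearson's r over the 8 mice was 0.987 for Ins2 with Ppy, 0.993 for Ins2 with Iapp and 0.985 for Ppy with Iapp. Exact permutation p-values over all pairings were 2.48e-05, 0.000124 and 9.92e-05, and after Benjamini-Hochberg adjustment over 21 pairs they were 0.000521, 0.000868 and 0.000868. Spearman's rho was 1.0 for Ins2 with Ppy (adjusted exact permutation p = 0.00104) and 0.929 for each of the other two pairs (adjusted p = 0.0117). Removing the group means ties the deviations within a group, and exact permutation only within groups gave adjusted p-values of 0.0365 to 0.0456.

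Ctrl 4 and KO 2 lie farthest from the median of Ins2, and r was given again without them. Over the remaining 6 mice it was 0.947 for Ins2 with Ppy (exact permutation p = 0.0264), 0.947 for Ins2 with Iapp (p = 0.0653) and 0.951 for Ppy with Iapp (p = 0.0125). Adjusted over the family these were 0.0924, 0.196 and 0.0875, so none of the 3 passed at n = 6. The correlation stayed high in the other mice. Without Ctrl 4 alone or KO 2 alone, the adjusted exact permutation p of the 3 pairs ran from 0.01875 to 0.02396. The loss of these mice and the smaller number of mice cannot be told apart at n = 6, since no other 2 mice were left out together for these pairs. Against Ins2, the log2 slope was 0.81 for the brightest Iapp probe set and 0.67 for Ppy.

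**Figure D3:**
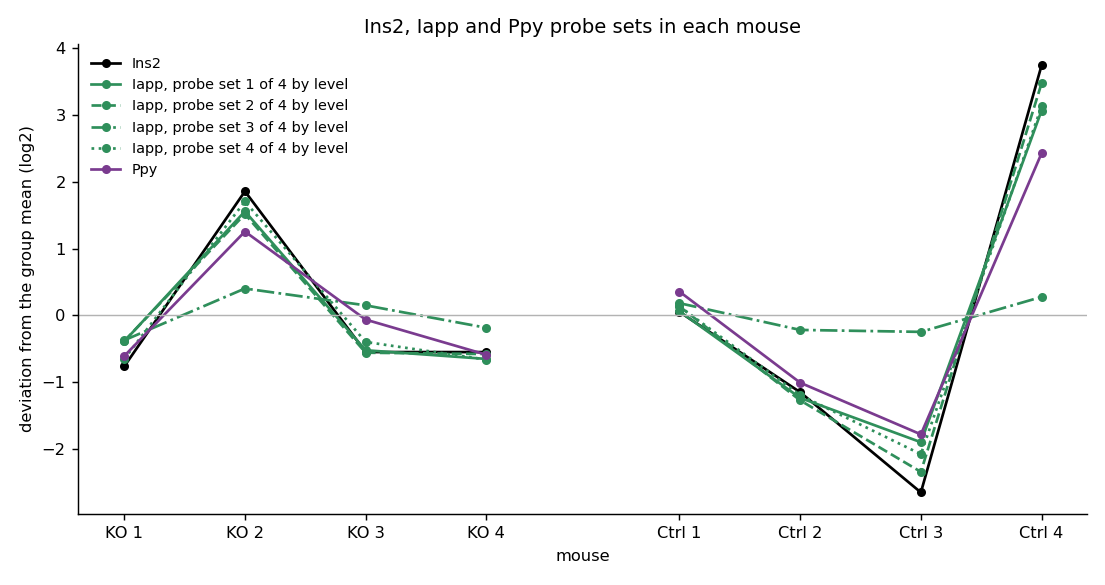
Deviation of Ins2, the 4 Iapp probe sets and Ppy from their group mean in each mouse (log2, KO mice left of Ctrl mice). All lines are highest of their group at KO 2 and Ctrl 4, the third Iapp probe set by a narrow lead, and all but that one reach their lowest point at Ctrl 3.

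G6pc2 followed the same mice within its narrow range. Its Pearson's r was 0.948 with Ins2 (adjusted exact permutation p = 0.00563), 0.927 with Ppy (adjusted p = 0.00582) and 0.975 with Iapp (adjusted p = 0.00208). By Spearman's rho only the pair with Iapp passed (0.929, adjusted exact permutation p = 0.0117). With Ins2 and with Ppy rho was 0.810 (adjusted p = 0.0653 for each). Without Ctrl 4 and KO 2 Pearson's r fell to 0.555, 0.560 and 0.769. The adjusted exact permutation p were then 0.570, 0.471 and 0.0924, so none of the 3 calls held without those mice. G6pc2 also lay within the dim range on every array. Slc30a8 had r between 0.18 and 0.282 with Ins2, Ppy and Iapp, and Ucn3 between 0.432 and 0.546, with no adjusted exact permutation p under 0.05 (0.281 to 0.721).

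Exocrine pancreas transcripts, which encode the digestive enzymes of acinar cells and their regulators, also varied between mice. All 22 measured genes of the list had a log2 change below 0 (median -0.36), where 49.99% of all probe sets did, and 0 passed the test. Over the 8 mice, 17 of the 22 were highest in Ctrl 4 and 16 were lowest in Ctrl 3, so their directions are not independent. Klk1, Pnliprp2 and Bhlha15, the members with the smallest p, had changes of -0.92, -1.01 and -0.28 (adjusted p = 0.355, 0.676 and 0.709, limma). The log2 of their summed linear level ran between 16.88 and 17.79 in KO mice and between 16.10 and 18.26 in Ctrl mice, and even the dimmest of the 22, Ptf1a, averaged 5.71.

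The mean deviation of these 22 genes served as an exocrine score. Some of the genes lay at the top of the scale, where differences may be understated: Cela3b in Ctrl 4, at 14.78, was the highest value on that array. Ctrc read 8.10 in KO 1 and 11.37 to 12.93 in the other KO mice, which lowers the KO 1 score. The score was -0.59, -0.44, 0.46 and -0.33 in KO 1 to KO 4, against 0.69, 0.35, -1.11 and 0.98 in Ctrl 1 to Ctrl 4. Among Ctrl mice the score put Ctrl 4 highest and Ctrl 3 lowest, the same mice as Ins2. Among KO mice it did not follow Ins2: KO 2, with the highest Ins2 of the KO mice, had a score of -0.44, and KO 3, with the highest score, had an Ins2 level of 8.06. Over the 8 mice the r of the score was 0.620 with Ins2, 0.663 with Ppy and 0.558 with Iapp (adjusted exact permutation p = 0.222, 0.192 and 0.270). Without Ctrl 4 and KO 2 these r were 0.861, 0.865 and 0.727 (adjusted exact permutation p = 0.0438, 0.0924 and 0.236, n = 6). Those leave out KO 2, whose Ins2 was high and whose score was below 0, so the higher r describe the other mice alone. With the score as a covariate in limma the Ins2 change was 0.15 (adjusted p = 0.975).

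**Figure D4:**
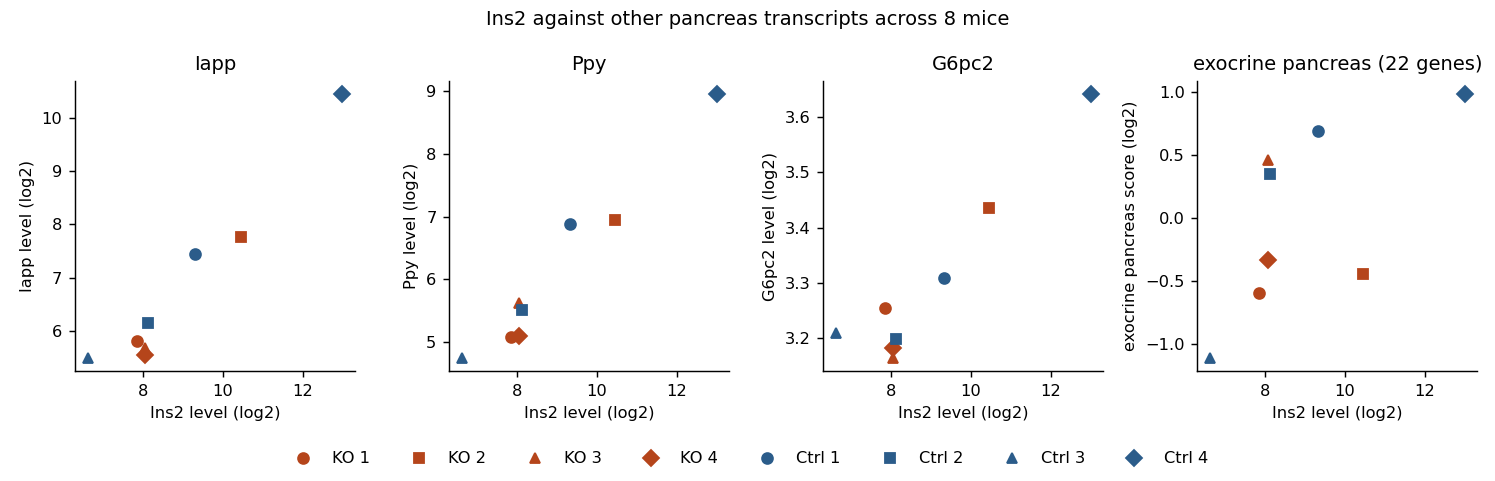
Iapp, Ppy and G6pc2 levels and the exocrine pancreas score against the Ins2 level in each of the 8 mice (log2, KO orange, Ctrl blue). Iapp and Ppy climb with Ins2, and KO 2, with an Ins2 level of 10.46, has an exocrine score of -0.44.

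Among markers of other cell types, those of B cells were highest in the same mouse of each group. All 5 measured lymph node and B cell genes were highest in KO 2 among KO mice and in Ctrl 4 among Ctrl mice, and 0 of the 5 passed the test between groups. Over all 8 mice, 0 of the 5 were highest in Ctrl 4, whereas Ins2, Iapp and Ppy were. Highest in both mice within their groups were also 8 of 36 genes of the wider islet list described below and 1 of 12 gut hormone genes. The same held for 3 of 13 islet transcription factors, 2 of 16 insulin secretion genes and 0 of 22 exocrine genes. Some of these lists share genes. The share of all probe sets highest in both was not counted, so whether any of these counts exceeds it cannot be told. Ms4a1, which encodes the B-cell protein CD20, read 7.52, 8.67, 7.64 and 8.23 in KO 1 to KO 4, against 7.38, 7.29, 6.78 and 8.22 in Ctrl 1 to Ctrl 4. Ctrl 3 was the lowest of the 8 mice for Ms4a1, as it was for 2 of the 5 genes in all. The summed log2 level of the 5 ran between 9.84 and 10.77 in KO mice and between 9.65 and 10.42 in Ctrl mice. Of 5 adipocyte genes, 0 were highest in KO 2 among KO mice. Of 10 stomach genes, 6 were highest in KO 2 among KO mice, with leads of at most 0.179, and 2 of these (Gkn3 and Tff2) also in Ctrl 4 among Ctrl mice, with leads of at most 0.185. The part of exocrine, B cell or other attached tissue in the islet values was not tested.

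Few transcripts stood out in both mice as the islet genes did. By a criterion chosen after the values were seen, Ctrl 4 led every other Ctrl mouse by at least 1 on the log2 scale in 19 of 45037 probe sets. KO 2 led every other KO mouse by that much in 12. Both held for 8 probe sets, and 5 of these were the Ins2, Ppy and 3 Iapp probe sets. The other two with a gene name were A2ml1 and 2310057J18Rik, and 1 had no single symbol. At a lead of 0.5 both held for 16 probe sets, and the genes added were Cilp, H2-Ob, Ighg3, Ighm, Ighv14-2 and Ms4a1.

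**Figure D5:**
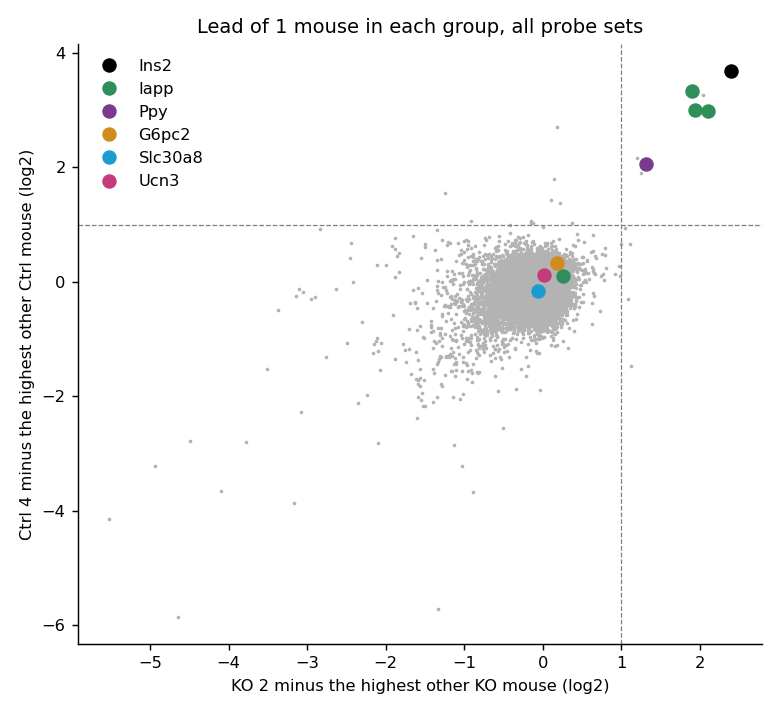
Lead of KO 2 over the highest other KO mouse (horizontal) and of Ctrl 4 over the highest other Ctrl mouse (vertical), log2, for all 45037 probe sets, with lines at a lead of 1. Ins2, Ppy and 3 Iapp probe sets lie among the 8 points past both lines.

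A wider list held other islet genes, many of them shared with the endocrine cells of the gut. Of its 36 measured genes, 0 passed the test, 22 had a change below 0 and the median was -0.03. Those with the smallest p were Ptprn2, a granule membrane protein gene (-0.31), Sst, the somatostatin gene (-0.61), and Ero1b, an oxidoreductase of the secretory pathway (-0.40), with adjusted p of 0.520, 0.561 and 0.595 (limma). Ctrl 4 was the highest mouse for 17 of the 36, but its widest lead over the next Ctrl mouse was 0.70 (Pyy), against 3.68 for Ins2. The share of all probe sets highest in Ctrl 4 was not counted.

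The insulin secretion machinery of the beta cell, from glucose uptake to granule release, had 16 measured genes. None of them passed, 10 were below 0 and the median change was -0.02. Ptprn2, Syt7 and Stx1a, the last a SNARE protein gene of exocytosis, had the smallest p, with changes of -0.31, -0.26 and -0.25 (adjusted p = 0.520, 0.684 and 0.696, limma). Slc2a2, the gene of the glucose transporter GLUT2 that enterocytes also make, averaged 12.20 ± 0.15 in KO mice and 11.98 ± 0.33 in Ctrl mice.

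Of 13 measured islet transcription factors, Pdx1 fell and the other 12 did not pass the test. Nkx2-2 and Neurog3, which both act in endocrine differentiation, had changes of 0.19 and -0.24 (adjusted p = 0.739 and 0.810, limma). Nkx6-1, a beta-cell factor, averaged 4.77 in KO mice and 4.76 in Ctrl mice, below the highest olfactory receptor mean. Of 7 measured genes known in beta cells as Pdx1 targets, a list that holds Ins2, Iapp and Pdx1 itself, 1 fell (Pdx1) and 5 were below 0 (median -0.61).

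Among 12 gut hormone genes, Gip fell and the other 11 did not pass, 10 of the 12 were below 0 and the median change was -0.20. Ctrl 4 was the highest mouse for 8 of the 12, and KO 2 was the highest KO mouse for 1. Some of the 12 are also in the wider islet list, and Ctrl 4 was highest for 17 of 22 exocrine genes as well. Gcg, which the gut L cell and the islet alpha cell both use, read 7.91, 7.98, 7.08 and 7.93 in KO 1 to KO 4, against 8.10, 7.51, 7.75 and 8.74 in Ctrl 1 to Ctrl 4. Ctrl 4 was the highest for Gcg as well, with a lead over Ctrl 1 that was small beside that for Ins2. Pyy, a peptide gene of the same family as Ppy, averaged 7.34 ± 0.20 in KO mice and 7.84 ± 0.51 in Ctrl mice (change -0.50, adjusted p = 0.692, limma).

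Among the probe sets searched, those whose profile over the mice was most like the islet genes all had small ranges. The search took 20301 probe sets with a single gene symbol and a mean of at least the median of all probe sets, members left out. Of these, 41 had r of at least 0.95 with Ins2, 42 with Ppy and 45 with Iapp. Dimmer probe sets and those without a single symbol were not searched. None of these varied by 1 or more on the log2 scale over the 8 mice. The named genes most like Ins2 were Mob3b, Usp48, Rad54l2, Tmppe, Ift74 and Vstm5, at r of 0.984 to 0.997 and ranges of 0.28 to 0.93. Those most like Ppy were Efna5, Reep5, Bcl2l14, Usp48, Extl3 and Rag2 (r of 0.982 to 0.989). Those most like Iapp were Rad54l2, Efna5, Dync1h1, Rag2, Zmiz1 and Mob3b (r of 0.985 to 0.990). With 8 mice and this many probe sets, such r describe likeness in these arrays and carry no test.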

How the data were processed

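The values analysed are log2 expression levels as deposited by the authors, 1 per probe set and array. Partek 6.4 is listed, without a role, in the submitters' processing notes; how background was corrected and probe sets summarised and normalized is not stated in the labels. The log2 scale was read from the values (array medians 5.23 to 5.27), and the depth of an array has no count, so the number of arrays limits the precision. Gene names came from the platform annotation: 34945 of 45037 probe sets had 1 symbol, 932 several and 9160 none.

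Groups came from the labels, which give no scan batch. KO minus Ctrl was fitted on all 8 arrays with limma 3.58.1 (R 4.3.3), two-sided, with Benjamini-Hochberg adjustment over 45037 probe sets after array controls were left out; scripts were tested on simulated data. A gene is represented by its brightest probe set by mean over the 8 mice. Correlations between mice used deviations from the group means and two-sided exact permutation of all pairings (scipy 1.17.1), adjusted over 15 member pairs and 6 pairs with the exocrine score. Figures used matplotlib 3.10.9. The main fit did not pair mice by replicate number. Over all probe sets, the deviations of same-numbered arrays from their group means had r of -0.18 to 0.08. Such r cannot show whether the numbers mark pairs, and the labels do not make this clear.

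The members and gene lists were chosen with earlier results of these data known. Named genes were the members, Pdx1, Vil1, list members that passed or otherwise up to 3 with the smallest p, and the 6 genes most like Ins2, Ppy and Iapp. Genes given to show a mouse or a level were picked after their values were seen. Promoters came from RefSeq, GRCm38.p6, with windows for 4 of the 6 measured genes. Alternatives were a replicate block, other scalings, a mean minimum, a floor at 5, other priors, array weights, an ordinary linear model, an exocrine covariate and each mouse left out. A fit without Ctrl 4 and KO 2 together was added and was not planned in advance.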

Additional observations from a re-analysis of the deposited data

Results flagged for a closer look

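KO 2 stood apart from the other KO mice in 4 of the 20 group values tested with Dixon's ratio at its 95% critical value for 4 samples. Its Ins2 level was 10.46, where the other KO mice lay between 7.84 and 8.06 (ratio 0.918). Its 3 variable Iapp probe sets read 7.76, 7.44 and 7.03 (ratios 0.881, 0.907 and 0.888), where the other KO mice lay between 5.55 and 5.82, between 5.35 and 5.54, and between 4.67 and 4.93. These 4 values track each other across mice and are not independent. Chance passes this limit in about 1 of 20 groups. Ctrl 4 did not pass it, since the other Ctrl mice were spread as well.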

How the results depend on the processing

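The count of changed member probe sets was 0 in 19 of 20 alternatives by limma, among them each mouse left out in turn (0 to 0) and the replicate block, and 1 at an unadjusted p under 0.05. Pdx1 fell under all 18 alternatives (-2.71 to -2.43, and -2.71 to -2.44 with each mouse left out). It missed the threshold with a floor at 5 (-2.59, adjusted p = 0.0833) and with an ordinary linear model (-2.59, adjusted p = 0.113), which called 4 and 2 of all probe sets, against 19 in the reported fit. The replicate block called 24, the fit without KO 2 called 13, and that without Ctrl 4 and KO 2 called 12. The block changed no call of a member; its Ins2 change was -0.66 (adjusted p = 0.966).

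Ins2 turned to 0.15 with the exocrine covariate and to 0.59 without Ctrl 4. Without Ctrl 4, Iapp 1423510_at turned to 0.0071 and G6pc2 to 0.021. Without Ctrl 4 and KO 2 together the changes of Ins2, Iapp 1423510_at and G6pc2 were -0.03, -0.56 and -0.04. With each mouse left out, Ins2 ran between -1.54 and 0.59, Iapp 1423510_at between -1.73 and 0.0071 and G6pc2 between -0.14 and 0.021. The cause was not tested beyond these fits. With each mouse left out, r ran between 0.976 and 0.996 for Ins2 with Iapp, between 0.969 and 0.993 for Ins2 with Ppy and between 0.965 and 0.993 for Ppy with Iapp. Without Ctrl 4 and KO 2 together the r of 0.947, 0.947 and 0.951 lost their adjusted calls, with 6 mice left. Ins2 with Iapp probe set 1456004_x_at had r = 0.761 (adjusted exact permutation p = 0.0649). These pairs were chosen after seeing the data, since the planned pair of Ins1 with Ins2 could not be run: no probe set carried the Ins1 symbol alone.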
